A study of Mus musculus with 2 samples.

Results

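Nuclear genes for the later part of the mitochondrial respiratory chain, complexes II to V, were examined in mouse hearts with and without a mutation that causes hypertrophic cardiomyopathy (HCM), a thickening disease of heart muscle. The members were taken by name: every entry of the count table whose symbol begins with Sdha to Sdhd, Uqcr, Cox followed by a digit, or Atp5, together with Cyc1 and Cycs, less 9 genes for paired isoforms of cytochrome oxidase. The rule matched 60 entries and left 51 of the 30385 listed. Of these, 39 stand for structural subunits or cytochrome c, and they are 38 genes, since Uqcr and Uqcr11 are overlapping entries for the same gene. The name rule also brought in 9 assembly factors (Sdhaf1, Sdhaf2, Cox10, Cox11, Cox15, Cox16, Cox17, Cox18 and Cox19) and 3 entries that are not subunits (Cox4nb, Atp5s and Atp5sl), and these 12 are described apart.

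There were 2 libraries. The MHC403 library came from hearts of MHC403/+ mice, which carry 1 copy of a mutated myosin heavy chain gene modelled on a human missense mutation, and the WT library from hearts of wild-type mice. All mice were of strain 129/SvEv and 8 to 16 weeks old, and all had been injected under the skin with CsA (cyclosporine A, a calcineurin inhibitor) at 15 mg/kg, 2 injections a day over 2 weeks. The hearts of each genotype were pooled before sequencing, so each value below is that of 1 pool, no difference has a replicate check, and p-values are left out. No library without CsA was analysed here, so an effect of the genotype and a genotype-dependent effect of the drug cannot be told apart. The genotype labels could not be checked, since reads are given per gene and not per allele. 5′RNA-seq reads polyA RNA without fragmenting it, so reads gather near transcript starts.

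Complex II (succinate dehydrogenase) passes electrons from succinate to ubiquinone and is the one complex of the chain made wholly from nuclear genes. Complex III (cytochrome bc1) passes them on to the small soluble carrier cytochrome c, complex IV (cytochrome c oxidase) to oxygen, and complex V (ATP synthase) uses the proton gradient built by the chain to make ATP. Complexes III, IV and V combine nuclear-encoded subunits with subunits encoded on mitochondrial DNA. The adult heart draws most of its ATP from this pathway, and these genes are among the abundant transcripts of heart muscle.

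The table held 5468677 reads for the MHC403 library and 5481123 for the WT library, totals that differ by 0.227%. Levels are given as RPM, reads per 1000000 reads of a library, and ratios are MHC403 over WT on that scale. The range after each ratio or fold is an exact (Clopper-Pearson) 95% interval, which covers counting error only. Entries count as measured from 50 reads in whichever library is higher, which 9507 entries and 48 of the 51 members reached. All but 1 of the 35 measured subunit genes had over 1000 reads in the higher library, and 5000 reads per library bound an even ratio between 0.961 and 1.04, and these bounds cover neither differences between animals nor the choice of scaling. All measured entries had a median log2 ratio of 0.57 with library totals. Entries placed on the mitochondrial genome took 13.7% of MHC403 reads (13.6 to 13.7) and 29.5% of WT reads (29.5 to 29.6). Atpase6, an entry named for the mitochondrial gene but placed on chromosome 1 in the table, took another 1.77% of MHC403 reads and 3.33% of WT reads, and it is counted here with the mitochondrially encoded entries. With the reads of all of these left out of the totals the median log2 ratio was 0.24.

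Most transcripts for subunits of complexes II to V were modestly lower in the MHC403 library. Of the 48 measured members, 35 had a counting interval wholly below a ratio of 1, 4 wholly above it (Cox5a, Atp5d, Cox19 and Cox4nb) and 9 spanning it. Under the other 3 scalings Cox5a and Atp5d had ratios below 1, and with median-of-ratios or TMM scaling no member had an interval wholly above 1. Among all measured entries the first share was 10.3% and the second 63.2%. None of the 48 was past 2-fold in either direction, where 2.43% of all measured entries were lower and 26.1% higher by that margin. At 1.5-fold, 5 members were lower (Uqcrb, Atp5h, Atp5j, Atp5k and Sdhaf2) and 2 higher (Cox19 and Cox4nb), beside 5.62% and 49.1% of all measured entries. The members' median log2 ratio was -0.30, that is 1.23-fold lower, and lay 0.87 below the median of all measured entries. Below that median were 46 of the 48. An interval narrows with depth, so the count was also set beside deeply read entries: of the 804 entries with at least 1000 reads that are not encoded on mitochondrial DNA, 26.5% had an interval wholly below 1 and the median was 0.52, and of the 36 members at that depth 32 did and the median was -0.32.

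**Figure D1:**
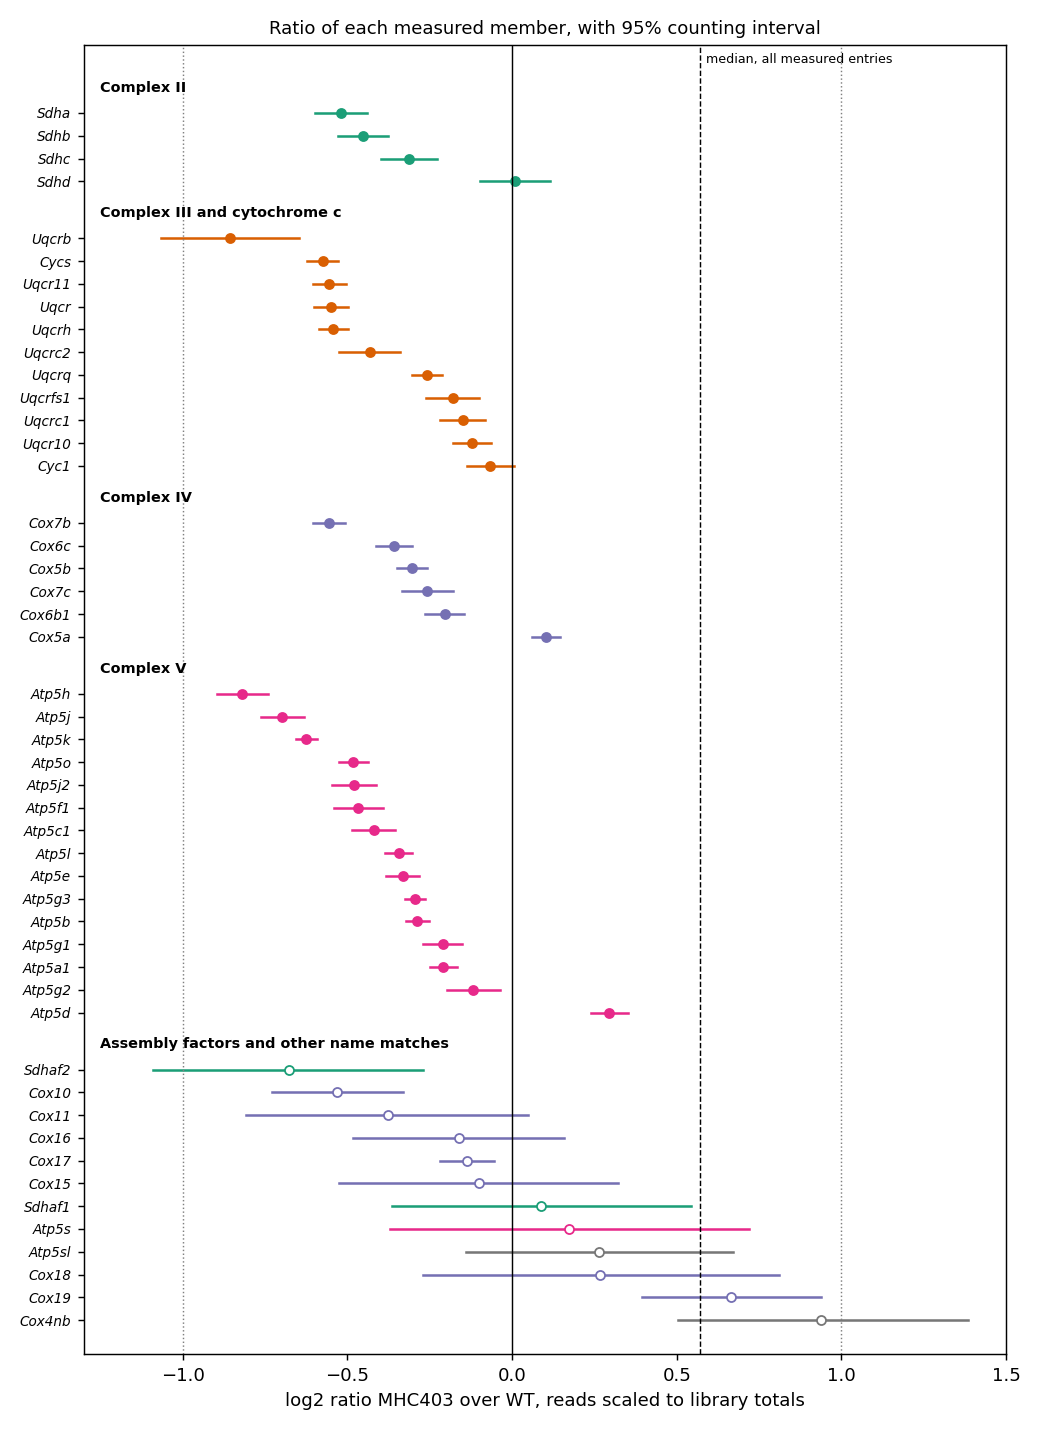
Log2 ratio MHC403 over WT (x axis, reads scaled to library totals) of the 48 measured members, grouped by complex. Points are the ratios, bars the 95% counting intervals, open points the assembly factors and other name matches, the dashed line the median of all measured entries (0.57) and the dotted lines 2-fold; Cox5a and Atp5d are the only subunits whose interval lies wholly above 0, and both fall below 0 under the other 3 scalings.

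Together the 38 subunit and cytochrome c genes took 3.30% of all MHC403 reads (3.29 to 3.32) and 4.20% of WT reads (4.18 to 4.21). Of reads not assigned to mitochondrial DNA they took 3.90% in the MHC403 library and 6.25% in the WT library. Bulk RNA cannot tell fewer heart muscle cells from less RNA per cell, and some marker lists of other cell types differed between the libraries. Among all measured entries, 63.2% had an interval wholly above 1 and 10.3% wholly below. The 8 cardiomyocyte markers summed to 23991 RPM in the MHC403 library against 27334 RPM in the WT library. Of these 8 markers, 3 had an interval wholly above 1 and 3 wholly below, from Actn2 (alpha-actinin), 1.56-fold (1.5 to 1.61) higher, to Tcap (telethonin), 1.75-fold (1.7 to 1.82) lower. All 8 fibroblast markers were higher, with a sum of 3225 RPM in the MHC403 library against 466 RPM in the WT library. Their largest ratios were 58.2 for Postn, on 19 WT reads, and 26.2, 19.8 and 15.3 for the collagens Col1a1, Col3a1 and Col1a2. Lum was at 3.51, Pdgfra at 2.25, Tcf21 at 1.79 and Dcn at 1.79, beside a median ratio of 1.48 for all measured entries. How far the sum follows the number of fibroblasts was not tested. All 9 macrophage markers were higher too, with a sum of 792 RPM in the MHC403 library against 257 RPM in the WT library. The 8 endothelial markers summed to 659 RPM in the MHC403 library against 538 RPM in the WT library, with 4 intervals above 1 and 1 below. Their median log2 ratio was 0.30, beside 0.57 for all measured entries, and 7 of the 8 lay below that median. The 5 smooth muscle markers summed to 319 RPM in the MHC403 library against 188 RPM in the WT library. None of the genes in those 5 lists was at 0. Brown fat, another tissue rich in these transcripts, was checked through 6 markers: Ucp1 and Adipoq had 0 reads in both libraries, and Fabp4, which capillary endothelium also expresses, made up most of their sum of 579 RPM in the MHC403 library against 454 RPM in the WT library. Cidea, another of the 6, had 206 MHC403 reads against 97 WT reads, 2.13-fold (1.66 to 2.74) higher. The 5 lymphocyte markers had 8 MHC403 reads and 5 WT reads in all. The part of these differences in the members' ratios was not tested.

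**Figure D2:**
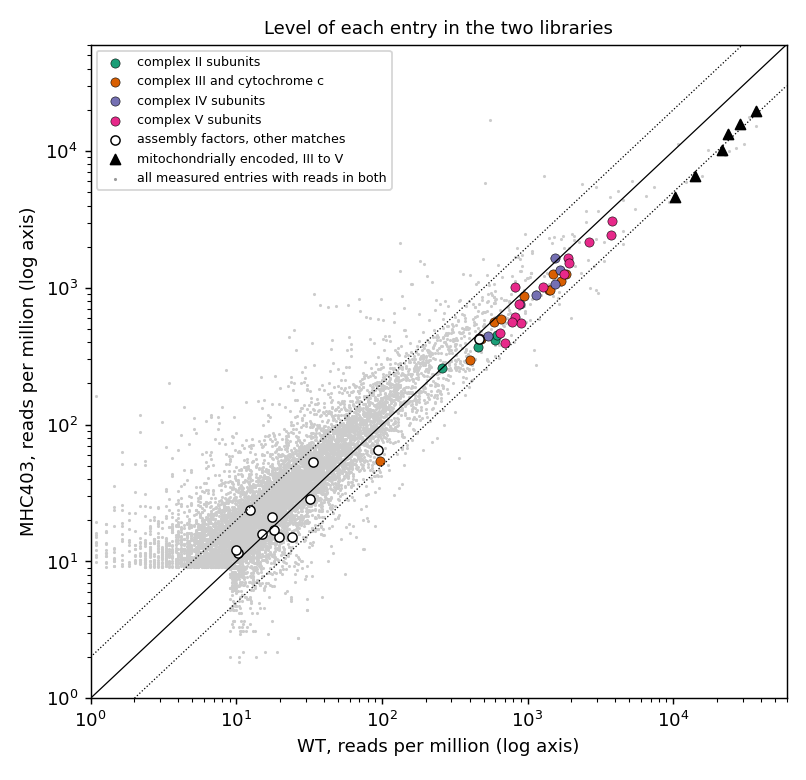
Level of each measured entry with reads in both libraries, in RPM, in MHC403 (y axis) against WT (x axis), both on log axes. The solid line marks a ratio of 1 and the dotted lines 2-fold; subunits of complexes II to V (coloured) lie mostly between the solid line and the lower dotted line, and the mitochondrially encoded subunits (triangles) near or below the lower dotted line.

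In complex II, 3 of 4 subunits were lower in the MHC403 library with library totals. Sdha, the flavoprotein that oxidises succinate (chromosome 13, 74459703 to 74487688 on mm9, the build of all positions given here without sequence), had 2286 reads in the MHC403 library and 3284 in the WT library. It was 1.43-fold (1.36 to 1.51) lower. Sdhb (chromosome 4, 140517186 to 140535107), whose iron-sulfur clusters carry the electrons onward, had 2460 MHC403 reads against 3375 WT reads and was 1.37-fold (1.3 to 1.44) lower. Sdhc and Sdhd anchor the enzyme in the inner membrane and hold its heme and a ubiquinone site. Sdhc (chromosome 1, 173059288 to 173080734) had 2026 MHC403 reads against 2522 WT reads, 1.24-fold (1.17 to 1.32) lower. Sdhd (chromosome 9, 50404445 to 50411954) had 1425 MHC403 reads against 1420 WT reads, a ratio of 1.01 (0.934 to 1.08). The hydrophilic pair Sdha and Sdhb thus had overlapping intervals. Sdhc lay nearer to 1, with an interval that overlapped that of Sdhb. Sdhd differed from all 3 in that its interval spanned 1 with library totals. Its log2 ratio was -0.54 with median-of-ratios or TMM scaling and -0.32 with mitochondrially encoded reads left out of the totals. The 4 subunits summed to 1499 RPM in the MHC403 library against 1934 RPM in the WT library, 1.29-fold lower.

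All 9 complex III subunit genes and cytochrome c had ratios below 1, but the size of the difference varied over a wide range. The lowest ratio of any member was that of Uqcrb (chromosome 13, 67001557 to 67006286), a small subunit beside the ubiquinone site, with 295 MHC403 reads against 535 WT reads, 1.81-fold (1.57 to 2.09) lower. It was also the most thinly read subunit, and 49.1% of the 36-base words at its 5′ end occur in other transcripts. The hinge protein Uqcrh (chromosome 4, 115739570 to 115747675), which sits beside cytochrome c1, had 6878 MHC403 reads against 10041 WT reads and was 1.46-fold (1.41 to 1.5) lower. The smallest subunit, Uqcr11 (chromosome 10, 79865742 to 79869566), had 5308 MHC403 reads against 7814 WT reads, 1.47-fold (1.42 to 1.52) lower. The overlapping entry Uqcr, with 5269 MHC403 reads against 7730 WT reads, repeats most of these reads and is no separate measurement. Uqcrq (chromosome 11, 53242450 to 53244333) was 1.2-fold (1.16 to 1.24) lower on 6880 MHC403 reads against 8249 WT reads, and Uqcr10 (chromosome 11, 4601971 to 4604347) was 1.09-fold (1.05 to 1.13) lower on 4785 MHC403 reads against 5217 WT reads.

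Among nuclear-encoded subunits of complex III, the pair that carries redox groups lay closer to 1 than most of its small subunits. Cyc1, cytochrome c1 (chromosome 15, 76173953 to 76176364), had 3071 reads in the MHC403 library and 3222 in the WT library, a ratio of 0.955 (0.909 to 1.004). The Rieske iron-sulfur protein Uqcrfs1 (chromosome 13, 30632181 to 30637185) had 2327 MHC403 reads against 2643 WT reads and was 1.13-fold (1.07 to 1.2) lower. The core proteins, which face the matrix, differed from each other. Uqcrc1 (chromosome 9, 108838661 to 108851686) had 3245 MHC403 reads against 3608 WT reads, 1.11-fold (1.06 to 1.16) lower. Uqcrc2 (chromosome 7, 127778703 to 127803037) had 1623 MHC403 reads against 2196 WT reads, 1.35-fold (1.27 to 1.44) lower. The intervals of the core pair did not overlap. The median log2 ratio of these 4 genes was -0.17 and that of the 5 small subunits -0.54, a difference for which there is no test.

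Cytochrome c itself was lower by more than most subunits. Cycs (chromosome 6, 50512562 to 50516473), the somatic form that carries electrons between complexes III and IV and also triggers apoptosis when released, had 6188 reads in the MHC403 library and 9238 in the WT library. It was 1.49-fold (1.44 to 1.54) lower, which set it apart from Cyc1, its electron donor, by intervals that did not overlap. The 5′ end of Cycs shares 61.2% of its 36-base words with transcripts of 10 other genes, 9 of them pseudogenes, so its reads may include those of copies.

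In complex IV 5 of the 6 measured nuclear subunits were lower, and Cox5a was higher with library totals but lower under the other 3 scalings. Cox7b (chromosome X, 103211039 to 103217789), a small membrane-spanning subunit encoded on the X chromosome, had 5791 reads in the MHC403 library and 8530 in the WT library. It was 1.47-fold (1.42 to 1.52) lower. Cox6c (chromosome 15, 35861731 to 35868001), another membrane subunit, had 4838 MHC403 reads against 6220 WT reads, 1.28-fold (1.24 to 1.33) lower. Cox5b (chromosome 1, 36748332 to 36750233), a zinc-binding subunit on the matrix side, had 7357 MHC403 reads against 9106 WT reads, 1.23-fold (1.2 to 1.27) lower. These 3 had intervals clear of 1 by a wide margin. Cox7c (chromosome 13, 86184403 to 86186400) was 1.2-fold (1.13 to 1.26) lower on 2451 MHC403 reads against 2937 WT reads. Cox6b1 (chromosome 7, 31401993 to 31411170), which lies on the intermembrane side near the cytochrome c docking site, was 1.15-fold (1.11 to 1.2) lower on 4191 MHC403 reads against 4841 WT reads. Cox5a (chromosome 9, 57369039 to 57380233), the matrix-side partner of Cox5b, had 9099 MHC403 reads against 8489 WT reads and was 1.07-fold (1.04 to 1.11) higher with library totals. Cox5a and Cox5b thus lay on opposite sides of 1 under scaling to library totals, and both lay below it under each of the other 3 scalings.

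The testis forms of complex IV subunits were near or at 0 in these hearts. Cox7b2 and Cox8c had 0 reads in both libraries, which at the floor of 3 counts allows up to 5.49e-05% of MHC403 reads and 5.47e-05% of WT reads. Cox6b2 had 9 MHC403 reads and 4 WT reads, a ratio of 2.26 with an interval whose lower end is 0.629, so no direction can be read from it.

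ATP synthase gave the largest set, with 14 of 15 subunit genes lower, and Atp5d higher with library totals but lower under the other 3 scalings. The 15 genes summed to 17934 RPM in the MHC403 library against 23090 RPM in the WT library, 1.29-fold lower, and their ratios ran from 0.567 to 1.23. The catalytic head is a ring of alpha and beta subunits. Atp5b, beta (chromosome 10, 127520363 to 127527444), which holds the catalytic sites, had 11810 reads in the MHC403 library and 14453 in the WT library and was 1.22-fold (1.19 to 1.25) lower. Atp5a1, alpha, had 9010 MHC403 reads against 10441 WT reads, 1.16-fold (1.12 to 1.19) lower. The alpha and beta ratio intervals, 0.841 to 0.890 and 0.799 to 0.839, did not overlap but nearly met, and they cover counting error only. The enzyme uses both subunits in equal number.

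The central stalk, the rotor shaft that turns inside the head, was where the ratios spread most within ATP synthase. Atp5c1, gamma (chromosome 2, 9977659 to 10002137), had 3360 reads in the MHC403 library and 4508 in the WT library and was 1.34-fold (1.28 to 1.4) lower. Atp5e, epsilon (chromosome 2, 174286576 to 174289602), had 5588 MHC403 reads against 7053 WT reads, 1.26-fold (1.22 to 1.3) lower. Atp5d, delta (chromosome 10, 79605060 to 79608563), had 5536 MHC403 reads against 4522 WT reads and was 1.23-fold (1.18 to 1.28) higher. Delta was thus the subunit with the highest ratio of all 35 measured subunit genes, while its stalk partners gamma and epsilon were lower. With reads encoded on mitochondrial DNA left out of the totals the log2 ratio of Atp5d was -0.04, and with median-of-ratios scaling it was -0.25.

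The membrane ring that the rotor shaft stands on is built from subunit c, and 3 genes encode the same mature subunit c behind different targeting sequences. Atp5g3 (chromosome 2, 73746507 to 73749351) had 16940 reads in the MHC403 library and 20828 in the WT library and was 1.23-fold (1.2 to 1.25) lower. Atp5g1 (chromosome 11, 95934107 to 95937008) had 4137 MHC403 reads against 4800 WT reads, 1.16-fold (1.11 to 1.21) lower. Atp5g2 (chromosome 15, 102493299 to 102501478) had 2352 MHC403 reads against 2557 WT reads, 1.08-fold (1.03 to 1.15) lower. All 3 had intervals below 1, and the interval of Atp5g3 overlapped with that of Atp5g1 but not with that of Atp5g2. The 3 genes summed to 4284 RPM in the MHC403 library against 5142 RPM in the WT library, 1.2-fold lower. At the 5′ end, 36.4% of the words of Atp5g1 and 48.1% of those of Atp5g2 occur in other transcripts, and 0% of those of Atp5g3.

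The peripheral stalk, which keeps the head from turning with the rotor, held the lowest ratios among the nuclear members of complex V, those of Atp5h and Atp5j. Atp5h, subunit d (chromosome 11, 115277011 to 115281233), had 2162 reads in the MHC403 library and 3822 in the WT library. It was 1.76-fold (1.67 to 1.86) lower, the lowest of the 15, and 31.2% of its 5′ words occur in transcripts of other genes, 85 in number. Atp5j, coupling factor 6 (chromosome 16, 84828116 to 84835819), had 3043 MHC403 reads against 4948 WT reads, 1.62-fold (1.55 to 1.7) lower. Atp5o, the oligomycin sensitivity conferring protein that caps the stalk (chromosome 16, 91925468 to 91931875), had 6959 MHC403 reads against 9743 WT reads, 1.4-fold (1.35 to 1.44) lower. Atp5f1, subunit b (chromosome 3, 105745781 to 105763166), had 2579 MHC403 reads against 3572 WT reads, 1.38-fold (1.31 to 1.45) lower. Windows of Atp5j overlap those of Gabpa, and windows of Atp5f1 those of Wdr77, on the opposite strand, so their reads may be mixed if strand was not used in counting. The highest of these 4 ratios, 0.724 for Atp5f1, was below the lowest of the alpha, beta and c ring genes, 0.815 for Atp5g3. Not all other subunits lay above it: the membrane subunits Atp5k and Atp5j2 were at 0.648 and 0.717. The interval of Atp5c1 in the central stalk, 0.714 to 0.781, overlapped that of Atp5f1, 0.688 to 0.761. The summed level of the 4 peripheral stalk genes was 1.49-fold lower.

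The small membrane subunits e, f and g, which shape the enzyme into dimers, were lower too. Atp5k, subunit e (chromosome 5, 108862272 to 108863397), had 13216 reads in the MHC403 library and 20434 in the WT library and was 1.54-fold (1.51 to 1.58) lower. Atp5j2, subunit f (chromosome 5, 145944575 to 145952461), had 3089 MHC403 reads against 4320 WT reads, 1.4-fold (1.33 to 1.46) lower. Its windows overlap those of an unnamed transcript on the same strand with a ratio of 0.710, so reads of the 2 cannot be fully told apart. Atp5l, subunit g (chromosome 9, 44721331 to 44728825), had 8294 MHC403 reads against 10557 WT reads, 1.27-fold (1.23 to 1.31) lower, and 50.9% of its 5′ words occur in other transcripts. By median log2 ratio the groups of ATP synthase ran from -0.59 in the peripheral stalk and -0.48 in subunits e, f and g to -0.33 in the central stalk, -0.25 in the head and -0.21 in the c ring, over 2 to 4 genes each and with no test of the order.

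Of the 12 members that are not structural subunits, 3 intervals lay below 1 with library totals, 2 above and 7 spanned it. The shares were 25% below and 16.7% above, beside 10.3% and 63.2% of all measured entries. The median log2 ratio of the 12 was -0.01. Under each of the other 3 scalings 10 of the 12 had a ratio below 1, with Cox19 and Cox4nb above it, and 10 lay below the median of all measured entries. Of all measured entries, 35.4% to 48.7% had a ratio below 1 under those scalings. For complex II, Sdhaf2, which attaches the flavin to Sdha, had 83 MHC403 reads against 133 WT reads, 1.6-fold (1.21 to 2.13) lower, though its windows overlap those of another entry. Sdhaf1, which helps place the iron-sulfur clusters of Sdhb, had 87 MHC403 reads against 82 WT reads, a ratio of 1.06 (0.777 to 1.46). Cox10 and Cox15 make the heme A of complex IV. Cox10 had 355 MHC403 reads against 514 WT reads, 1.44-fold (1.26 to 1.66) lower. Cox15 had 93 MHC403 reads against 100 WT reads, a ratio of 0.932 (0.695 to 1.25). The copper-handling factors divided 3 ways. Cox17, the copper chaperone, had 2315 MHC403 reads against 2551 WT reads, 1.1-fold (1.04 to 1.16) lower. Cox11 had 83 MHC403 reads against 108 WT reads, a ratio of 0.770 (0.572 to 1.03). Cox19 had 291 MHC403 reads against 184 WT reads and was 1.59-fold (1.31 to 1.92) higher, the highest ratio among the assembly factors.

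The remaining name matches were thinly read. Cox16 had 156 MHC403 reads against 175 WT reads and Cox18, which inserts a mitochondrially encoded subunit into the membrane, 66 MHC403 reads against 55 WT reads. Their ratios were 0.893 (0.715 to 1.12) and 1.2 (0.828 to 1.75), so neither differed from 1 beyond counting error. Atp5s had 63 MHC403 reads against 56 WT reads and Atp5sl 115 MHC403 reads against 96 WT reads, with intervals that also spanned 1. Cox4nb is named for lying next to Cox4i1 and encodes a part of a membrane protein complex of the endoplasmic reticulum, not of complex IV. It had 130 MHC403 reads against 68 WT reads and was 1.92-fold (1.42 to 2.61) higher, the highest ratio of the 48 measured members. Another entry on the same strand, COX4AL, overlaps it with the same counts, so reads of the pair cannot be told apart. Without the 12, the 36 measured subunit and cytochrome c entries had 32 intervals below 1, 2 above and 2 spanning it, with a median log2 ratio of -0.34.

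Set beside the rest of the respiratory chain, the members resembled complex I in their ratios and were less reduced than the subunits encoded on mitochondrial DNA. Of 36 complex I subunit genes 33 had an interval below 1 and 1 above, and the median log2 ratio was -0.36, against -0.33 for the 35 measured subunit and cytochrome c genes of complexes II to V. The complex I ratios ran from 0.466 for Ndufa3 to 1.18 for Ndufa11, and those of complexes II to V from 0.553 to 1.23. One of them, Ndufa4, 1.45-fold (1.41 to 1.49) lower, is now counted with complex IV. Of the 9 cytochrome oxidase isoform genes that the name rule leaves out 8 were measured, from Cox7a1, 2.0-fold (1.95 to 2.06) lower, to Cox6a1, 2.09-fold (1.89 to 2.3) higher.

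Within complexes III and IV the mitochondrially encoded subunits had lower ratios than every measured nuclear member of the same complex. Of the isoform genes left out by name, Cox7a1 lay among the mitochondrially encoded values at 2.0-fold (1.95 to 2.06) lower, and Cox8b, 1.61-fold (1.56 to 1.66) lower, was also below every complex IV member. Cytochrome b, mt-Cytb, had 55312 MHC403 reads against 118636 WT reads, a ratio of 0.467 (0.463 to 0.472), below that of Uqcrb at 0.553 (0.478 to 0.638). The catalytic subunits of complex IV, mt-Co1, mt-Co2 and mt-Co3, had ratios of 0.527, 0.541 and 0.453, against 0.680 for Cox7b, the lowest of the complex IV members. In complex V, mt-Atp8 had a ratio of 0.468 (0.462 to 0.474) and mt-Atp6 a ratio of 0.566 (0.561 to 0.571), a value inside the interval of Atp5h, 0.538 to 0.598. Use of strand in the counting, on which entries of the compact mitochondrial genome depend, is not stated in the sources used here. The intervals cover counting error only, and whether polyA selection captured mitochondrial RNA alike in both pools was not tested.

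**Figure D3:**
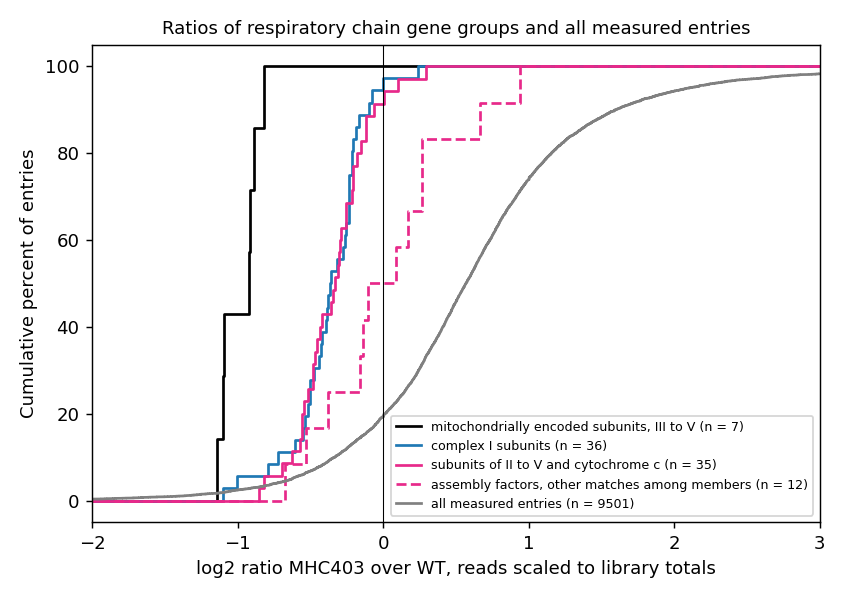
Cumulative percent of entries (y axis) by log2 ratio MHC403 over WT (x axis, reads scaled to library totals) for gene groups of the respiratory chain and for the 9501 measured entries with reads in both libraries. The curve of complexes II to V (35 genes) runs close to that of complex I (36 genes), left of all measured entries and right of the 7 mitochondrially encoded entries, of which 6 are placed on the mitochondrial genome and Atpase6 on chromosome 1.

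Genes of a further list, not matched by the name rule, were mostly lower with library totals. It holds assembly factors together with Taco1, Lrpprc and Pet112l, which act in mitochondrial translation or on mitochondrial RNA. All 12 looked up that the table holds were measured. Of these, 8 had an interval below 1, 2 were at least 2-fold lower and none had an interval above 1. Among all measured entries those shares were 10.3%, 2.43% and 63.2%. The median log2 ratio of the 12 was -0.58, and Lrpprc and Pet112l were among the 8. Of the 9 assembly factors among the members, 3 had an interval below 1, with a median of -0.14. The 12 are thinly read. Lyrm7, Bcs1l and Atpaf2 reached the 50-read minimum only through the WT library, where they were higher. For these genes being measured and being lower are tied, so the 2-fold count lends no support. Lyrm7 and Bcs1l both act on the Rieske protein of complex III: Lyrm7 had 18 MHC403 reads against 57 WT reads, 3.16-fold (1.83 to 5.7) lower. Bcs1l had 24 MHC403 reads against 50 WT reads, 2.08-fold (1.25 to 3.54) lower. The chaperones of the ATP synthase head, Atpaf1 and Atpaf2, were 1.54-fold (1.2 to 1.99) and 1.65-fold (1.11 to 2.47) lower, and Tmem70, which helps build the c ring, was 1.57-fold (1.22 to 2.02) lower. Taco1, which aids translation of mt-Co1, had the highest ratio of the list, 1.09 (0.810 to 1.48). Atpif1, the inhibitor that stops ATP synthase from running in reverse, had 825 MHC403 reads against 553 WT reads and was 1.5-fold (1.34 to 1.67) higher with library totals, close to the median of all measured entries. With median-of-ratios scaling its ratio was 1.02 (0.917 to 1.14), an interval that spans 1.

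The size of these differences depended on how the libraries were scaled, and their place below other genes did not. Leaving reads encoded on mitochondrial DNA out of the totals lowered every log2 ratio by 0.33, and median-of-ratios scaling lowered it by 0.55. The members' median was then -0.63 and -0.85, and 4 and 16 of the 48 were at least 2-fold lower. Of all measured entries, 4.51% were at least 2-fold lower with those reads left out and 7.59% with median-of-ratios scaling. Under library totals, under both of these and under TMM scaling, the members' median lay 0.87 below that of all measured entries, which follows from shifting all ratios alike. Under the 3 alternatives, 46 of the 48 members had a ratio below 1, against 39 with library totals, and the exceptions were Cox19 and Cox4nb. Of all measured entries, 19.3% had a ratio below 1 with library totals. That share was 48.7% with median-of-ratios scaling, 48.6% with TMM scaling and 35.4% with mitochondrially encoded reads left out.

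**Figure D4:**
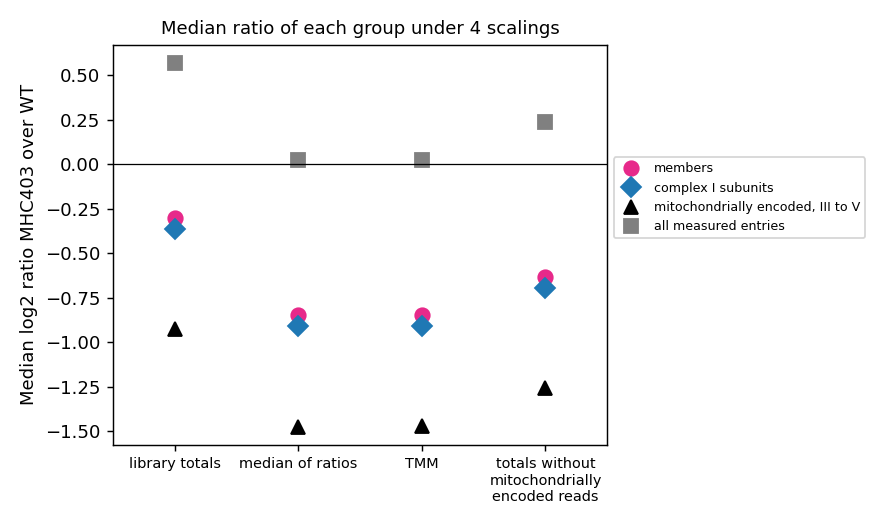
Median log2 ratio MHC403 over WT (y axis) of the 48 measured members, complex I subunits, mitochondrially encoded subunits of complexes III to V and all measured entries, under 4 scalings (x axis). The members lie at -0.30, -0.85, -0.85 and -0.63, always 0.87 below all measured entries.

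Start-site use of the members was described through the score in the authors' deposited table, a whole number per gene for a change of start between the libraries, with a formula that the sources used here do not give. Per the authors' deposited table, 17 of the 48 measured members (35.4%) had a score above 0, beside 34.7% of the 10483 entries with at least 20 reads in both libraries. The highest member score in the authors' deposited table was 37 for Atp5f1, which has 2 annotated starts, and 2.08% of those entries scored as high or higher. Atp5a1, also with 2 starts, scored 19 in the authors' deposited table, a level that 8.5% reached, and Cox5b, Cox15 and Cox19 scored 13. Cox5b, Cox15 and Cox19 have 1 annotated start each. The reads are given per gene, so whether a start differed, and which one, is not known.

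Since all 35 measured subunit and cytochrome c genes lay below the median of all measured entries, their promoters were searched for motifs of factors known to drive respiratory genes. RefSeq promoters (GRCm38.p6, 250 bases before to 50 after each annotated start) matched 28 of the 35 measured subunit and cytochrome c genes. The motifs were GCGCNTGCG for NRF1, CCGGAAG for ETS factors such as GABP, AAGGTCA for the oestrogen-related receptors (ERR), AANATGGCG for YY1 and GGGCGG for SP factors, on both strands, and TATAAA for a TATA box on the gene's strand, and none contains another. The NRF1 motif was in 14 of 28 members' promoters (50%), beside 16.7% of 6110 measured genes with a promoter and 7.12% of all 27025. The ETS motif was in 10 (35.7%, beside 20.4% of measured genes), the ERR motif in 5 (17.9%, beside 3.91%), the YY1 motif in 3 (10.7%, beside 7%) and the SP motif in 9 (32.1%, beside 72.4%). No member had the TATA motif, which 5.27% of measured genes had. The median log2 ratio was -0.38 in the 14 members with the NRF1 motif and -0.32 in the 14 without it. It was -0.50 in the 10 with the ETS motif and -0.29 in the 18 without it, and -0.33 in the 5 with the ERR motif and -0.42 in the 23 without it. For YY1 the values were -0.48 in 3 and -0.33 in 25 members, and for SP -0.33 in 9 and -0.34 in 19. A match describes the letters and does not show that a factor binds.

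The following promoters are those of the members with the lowest and the highest ratio in each complex among those matched, so that each pair sets a gene with a low MHC403 ratio beside one nearer to or above 1. They run 5′ to 3′ on the gene's strand in GRCm38.p6, and capitals mark the motifs above; for a gene with several windows the one with the most matches is given. In complex II both genes have NRF1 matches, 3 of them in Sdha (ratio 0.698), while Sdhd (1.01) has 1 NRF1, 1 ETS, 1 SP and 1 ERR match. In complex III and cytochrome c, Cycs (0.671) has an NRF1 match 61 bases before the start and an SP match after it, and Uqcr10 (0.919) has an NRF1 match just after it. In complex IV, Cox7b (0.680) matches none of the motifs and Cox5a (1.07) has SP matches alone. In complex V, Atp5h (0.567) has an NRF1 and an ETS match and Atp5d (1.23) an NRF1 match.
Sdha, chr13:74350191-74350490, minus strand: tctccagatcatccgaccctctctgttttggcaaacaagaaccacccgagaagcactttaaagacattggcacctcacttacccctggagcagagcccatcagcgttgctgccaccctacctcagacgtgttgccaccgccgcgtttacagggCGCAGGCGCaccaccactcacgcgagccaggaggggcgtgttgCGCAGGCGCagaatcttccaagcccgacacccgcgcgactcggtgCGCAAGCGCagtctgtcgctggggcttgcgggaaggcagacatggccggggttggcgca
Sdhd, chr9:50603800-50604099, minus strand: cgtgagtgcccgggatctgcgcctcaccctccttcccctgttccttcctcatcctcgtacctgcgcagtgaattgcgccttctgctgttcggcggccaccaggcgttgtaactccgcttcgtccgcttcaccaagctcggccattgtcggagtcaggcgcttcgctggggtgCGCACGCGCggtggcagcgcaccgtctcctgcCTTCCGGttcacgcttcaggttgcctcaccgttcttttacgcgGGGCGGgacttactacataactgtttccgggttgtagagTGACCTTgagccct
Cycs, chr6:50566520-50566819, minus strand: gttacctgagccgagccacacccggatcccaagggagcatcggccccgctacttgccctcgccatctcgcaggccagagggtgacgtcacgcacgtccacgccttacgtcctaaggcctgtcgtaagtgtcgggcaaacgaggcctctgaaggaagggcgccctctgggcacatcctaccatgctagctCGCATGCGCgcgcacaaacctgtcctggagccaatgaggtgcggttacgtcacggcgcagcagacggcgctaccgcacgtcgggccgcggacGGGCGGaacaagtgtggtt
Uqcr10, chr11:4704295-4704594, minus strand: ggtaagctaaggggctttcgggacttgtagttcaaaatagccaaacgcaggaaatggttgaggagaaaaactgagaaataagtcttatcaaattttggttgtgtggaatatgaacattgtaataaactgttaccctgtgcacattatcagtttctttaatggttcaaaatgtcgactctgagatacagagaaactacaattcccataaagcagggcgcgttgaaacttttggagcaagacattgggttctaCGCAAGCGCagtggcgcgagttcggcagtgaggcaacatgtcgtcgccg
Cox7b, chrX:106015450-106015749, plus strand: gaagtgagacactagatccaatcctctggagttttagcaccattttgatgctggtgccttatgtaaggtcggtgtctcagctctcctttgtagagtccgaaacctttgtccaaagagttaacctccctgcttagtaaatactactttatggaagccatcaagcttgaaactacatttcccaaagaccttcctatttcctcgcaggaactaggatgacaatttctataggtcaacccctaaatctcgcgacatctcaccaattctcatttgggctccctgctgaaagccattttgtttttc
Cox5a, chr9:57520982-57521281, plus strand: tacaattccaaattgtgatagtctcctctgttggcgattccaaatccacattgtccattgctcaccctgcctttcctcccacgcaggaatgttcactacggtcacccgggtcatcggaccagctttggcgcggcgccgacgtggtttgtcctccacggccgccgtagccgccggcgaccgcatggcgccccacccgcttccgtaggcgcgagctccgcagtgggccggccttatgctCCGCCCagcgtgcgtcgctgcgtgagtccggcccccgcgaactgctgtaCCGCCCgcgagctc
Atp5h, chr11:115419870-115420169, minus strand: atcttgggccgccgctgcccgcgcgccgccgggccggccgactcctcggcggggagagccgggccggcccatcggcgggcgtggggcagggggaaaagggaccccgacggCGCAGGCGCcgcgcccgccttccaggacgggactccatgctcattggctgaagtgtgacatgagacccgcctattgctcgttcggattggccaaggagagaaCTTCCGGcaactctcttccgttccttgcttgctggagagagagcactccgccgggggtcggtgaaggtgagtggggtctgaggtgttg
Atp5d, chr10:80142065-80142364, plus strand: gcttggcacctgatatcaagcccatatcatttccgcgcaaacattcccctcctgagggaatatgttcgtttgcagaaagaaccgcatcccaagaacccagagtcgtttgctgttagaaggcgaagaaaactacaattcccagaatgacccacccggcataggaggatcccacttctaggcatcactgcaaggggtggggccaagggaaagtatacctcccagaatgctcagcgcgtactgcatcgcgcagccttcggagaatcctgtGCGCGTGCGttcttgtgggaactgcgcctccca

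How far reads can be assigned to single members was looked at in the reference transcripts. Of the 50 members with a matched transcript, 32 share no 36-base word of their first 200 bases with a transcript of another gene. The largest shares were 75.0% for Cox17, 61.2% for Cycs, 51.9% for Cox4nb, 50.9% for Atp5l and 49.1% for Uqcrb. The sources used here state neither the read length nor the treatment of reads with several matches, so values for these genes are uncertain. Sdhd, Cyc1 and Atp5d, which lay at or above most other members, share none, and neither do Sdha, Sdhb, Uqcrh, Atp5j or Atp5b, which were lower.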

How the data were processed

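Heart RNA of 1 MHC403 and 1 WT pool was compared. Per the labels' protocols, intact polyA RNA was sequenced at 5′ ends after size selection and linear amplification. The submitters' processing notes name TopHat 1.0.14 and mm9. The sources used here state no counting program, use of strand or read length. The authors deposited read counts per gene, with no normalization, and RPM, which recomputation from the counts matched within 4.94e-06. The authors' deposited fold (a ratio) and p-value columns were not used, since the sources used here do not state the test behind them. The start-site score is the authors' deposited value.

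Counts were scaled to column totals (Python 3.11.15, scipy 1.17.1), and the ratio was given an exact 95% interval based on the binomial split of a gene's reads. At 50 reads in each library that interval runs from 0.662 to 1.51. No test was possible with 1 library a genotype. Size factors came from DESeq2 1.42.0 (median of ratios) and edgeR 4.0.16 (TMM), and no count model was fitted. The interval routine was tested on simulated counts. Members and lists were chosen with earlier results of these data known. Every member was counted and named. Symbols missing from the sequence tables were matched through synonyms. The reference is GRCm38, so none of its coordinates were joined to mm9 positions. The members Atp5a1, Cyc1, Sdhc, Uqcrb, Uqcrc2, Uqcrq and Cox6c had no promoter used here.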

Additional observations from a re-analysis of the deposited data

How the results depend on the processing

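The direction of the members' median and of each complex's median was the same under every alternative run. Each complex here holds all its members, with assembly factors and Atp5s included. With library totals the median log2 ratio of complex IV was -0.20 over 13 measured members and -0.28 over its 6 measured subunits. Scaling moved the size of the medians, since by construction it shifts every log2 ratio alike. With median-of-ratios scaling the median log2 ratio was -0.85 over all members, -0.93 for complex II, -0.98 for complex III with cytochrome c, -0.75 for complex IV and -0.89 for complex V, 16 members were at least 2-fold lower and 0 had an interval wholly above 1. With TMM scaling the same values were -0.85, -0.93, -0.98, -0.75 and -0.88, with 15 and 0 members. With reads encoded on mitochondrial DNA left out of the totals they were -0.63, -0.72, -0.77, -0.54 and -0.67, with 4 and 2 members. Of all measured entries 7.59%, 7.55% and 4.51% were at least 2-fold lower under the 3 scalings, in that order. The log2 ratio of Atp5d, 0.30 with library totals, was -0.25, -0.25 and -0.038 under these 3 scalings, and that of Cox5a, 0.10 with library totals, was -0.44, -0.44 and -0.23. The number of members at least 2-fold lower or higher was 0 and 0, and at 1.5-fold it was 5 and 2. With no read minimum 1 member, Cox6b2, was at least 2-fold higher. Members with an interval wholly above 1 numbered 4, and 2 with subunits and cytochrome c only or with a minimum of 1000 reads, an alternative added after the data were seen. Minimums of 20 and 200 reads and leaving out overlapping entries kept the counts within 1.5 times. Leaving out overlapping entries, which drops both Uqcr and Uqcr11, gave a median of -0.26 for complex III with cytochrome c, against -0.43 with both entries counted and -0.35 with Uqcr11 alone. No paired analysis was possible because each genotype had 1 pooled library, so no replicate could be left out or paired. Depth limits the assembly factors, most of which were thinly read.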

Other observations

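Genes for regulators of the respiratory chain were read thinly, and the number of their intervals clear of 1 depended on the scaling. Their median log2 ratio lay below 0 under every scaling. Of 15 listed, 12 were measured, and with library totals 3 had an interval below a ratio of 1, 2 above and 7 spanning it. The shares were 25% below and 16.7% above, beside 10.3% and 63.2% of all measured entries. The median log2 ratio of the 12 was -0.08. With median-of-ratios scaling 9 intervals lay below 1 and 1 above, with a median of -0.62, and 10 of the 12 lay below the median of all measured entries. The values that follow are for library totals. The coactivator Ppargc1a had 143 MHC403 reads against 237 WT reads, 1.65-fold (1.34 to 2.05) lower. The nuclear receptor Esrrg had 87 MHC403 reads against 128 WT reads, 1.47-fold (1.11 to 1.95) lower, while its relative Esrra had 525 MHC403 reads against 511 WT reads, a ratio of 1.03 (0.910 to 1.17). Tfam, which packages mitochondrial DNA and starts its transcription, had 87 MHC403 reads against 120 WT reads, 1.38-fold (1.04 to 1.84) lower. Higher were the coactivator Pprc1, with 157 MHC403 reads against 47 WT reads, 3.35-fold (2.4 to 4.74) higher, and Yy1, with 113 MHC403 reads against 60 WT reads, 1.89-fold (1.37 to 2.63) higher. The median ratio of all measured entries, 1.48, lies inside the interval of Yy1. Nrf1 had 48 MHC403 reads and 29 WT reads and stayed under the 50-read minimum. Pprc1 reached that minimum only through the MHC403 library, where it was higher. Gabpa, which is transcribed away from Atp5j and overlaps its windows on the other strand, had 401 MHC403 reads against 424 WT reads, a ratio of 0.948 (0.825 to 1.09), whereas Atp5j was 1.62-fold (1.55 to 1.7) lower. Wdr77, which overlaps Atp5f1 in the same way, had 298 MHC403 reads and 256 WT reads, a ratio of 1.17, beside 0.724 for Atp5f1.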
